A study of Mus musculus with 11 samples.

Results

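The nuclear genes of the oxidative phosphorylation system were followed in the adult hippocampus of mice that had been exposed to particulate matter (PM) before birth. Members were taken by symbol: rows of the count files beginning with Nduf followed by a subunit letter and a digit, the 4 Sdh genes, all Uqcr and Atp5 rows, and the Cox rows with the numbers 4 to 8 and a letter a to c, leaving out symbols marked as pseudogenes. This gave 83 of the 24421 genes in the files, made up of 38 of complex I, 4 of complex II, 8 of complex III, 16 of complex IV and 17 of complex V. There were 11 RNA sequencing libraries of whole hippocampus. The 6 PM libraries came from offspring of mothers given PM by the nose at 200 µg per kg on gestational days 9, 12 and 15, and the 5 vehicle libraries from offspring whose mothers had received normal saline. Both groups were born on day 21 and sampled at 14 to 18 weeks of age. Replicates 1 to 3 of each group form set 1, and PM replicates 4 to 6 with vehicle replicates 4 and 5 form set 2, since the library numbers in the labels start again there and a treatment description is attached to set 2 alone. The labels name no genotype or strain manipulation for either group, and they do not say whether libraries stem from separate animals or litters, so p-values measure the spread between these libraries, which may be technical in part.

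Oxidative phosphorylation takes place in the inner mitochondrial membrane. Complexes I and II pass electrons from NADH and succinate to ubiquinone, complex III passes them on to cytochrome c and complex IV to oxygen, and complexes I, III and IV pump protons that ATP synthase, complex V, uses to make ATP. Complex II is encoded wholly in the nucleus, whereas the other complexes join nuclear subunits to a few encoded by mitochondrial DNA. Neurons rely heavily on this pathway to restore ion gradients after firing. The mitochondrially encoded subunits were looked for by symbol and 0 of 13 had a row, so the measurements concern the nuclear side only.

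Stretches just upstream of 7 members are shown because the members changed together and because regulators of nuclear mitochondrial genes are known to bind near their starts. They belong to the member of each complex with a high fold change whose window lies before the annotated gene (a 4-base overlap for Atp5e), to Atp5l as a window holding 3 kinds of motif, and to Ndufc2 as the tested member with the lowest fold change. Each is the 250 bases before the RefSeq start on GRCm38.p6, read in the direction of transcription. They lie at chrX:20617620-20617869 (Ndufb11, minus strand), chr7:97399753-97400002 (Ndufc2, plus), chr9:50603850-50604099 (Sdhd, minus), chr11:4704345-4704594 (Uqcr10, minus), chrX:106015450-106015699 (Cox7b, plus), chr2:174464102-174464351 (Atp5e, minus) and chr9:44920743-44920992 (Atp5l, minus). Capitals mark the letters of the NRF1 motif (GCATGCGC), the ETS motif bound by GABP (CCGGAAG) and the CCAAT box (CCAAT), on either strand.
Ndufb11: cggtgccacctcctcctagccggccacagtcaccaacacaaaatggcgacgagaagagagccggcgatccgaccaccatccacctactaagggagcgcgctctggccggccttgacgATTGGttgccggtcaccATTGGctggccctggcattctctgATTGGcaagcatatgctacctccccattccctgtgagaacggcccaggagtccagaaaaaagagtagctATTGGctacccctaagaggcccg
Ndufc2: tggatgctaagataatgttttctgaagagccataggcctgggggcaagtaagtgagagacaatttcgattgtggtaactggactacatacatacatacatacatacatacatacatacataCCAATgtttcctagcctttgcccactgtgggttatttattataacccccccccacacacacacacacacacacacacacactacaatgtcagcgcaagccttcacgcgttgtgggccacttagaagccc
Sdhd: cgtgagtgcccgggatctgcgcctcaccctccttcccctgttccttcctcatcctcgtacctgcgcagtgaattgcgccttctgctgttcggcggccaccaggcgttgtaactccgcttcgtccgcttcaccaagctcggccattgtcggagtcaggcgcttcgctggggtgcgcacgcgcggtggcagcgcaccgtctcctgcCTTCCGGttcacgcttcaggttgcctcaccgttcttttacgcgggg
Uqcr10: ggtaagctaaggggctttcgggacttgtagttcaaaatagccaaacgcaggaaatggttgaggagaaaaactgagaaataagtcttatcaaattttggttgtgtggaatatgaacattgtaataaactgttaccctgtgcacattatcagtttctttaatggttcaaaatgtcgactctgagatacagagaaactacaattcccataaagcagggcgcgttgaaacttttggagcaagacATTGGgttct
Cox7b: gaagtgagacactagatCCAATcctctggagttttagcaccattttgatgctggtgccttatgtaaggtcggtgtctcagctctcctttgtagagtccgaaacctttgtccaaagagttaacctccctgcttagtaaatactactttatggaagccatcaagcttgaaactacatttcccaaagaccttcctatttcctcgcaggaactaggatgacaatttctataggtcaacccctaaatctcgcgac
Atp5e: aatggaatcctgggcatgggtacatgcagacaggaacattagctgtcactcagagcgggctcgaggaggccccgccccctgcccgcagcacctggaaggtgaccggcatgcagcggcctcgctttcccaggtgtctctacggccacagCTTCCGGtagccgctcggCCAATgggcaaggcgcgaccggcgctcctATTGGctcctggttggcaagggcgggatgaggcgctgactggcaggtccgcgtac
Atp5l: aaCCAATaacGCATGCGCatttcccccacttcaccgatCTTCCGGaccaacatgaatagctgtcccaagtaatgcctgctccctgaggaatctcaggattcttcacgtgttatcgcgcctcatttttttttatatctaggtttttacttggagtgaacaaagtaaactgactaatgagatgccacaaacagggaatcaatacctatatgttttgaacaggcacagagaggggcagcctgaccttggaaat

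RefSeq windows of 300 bases, from 250 before to 50 after the start, were matched to 70 of the 83 members and to 11791 tested genes. The NRF1 letters were present in 10 member windows, 14.3%, against 5.06% of the windows of all tested genes. ETS letters occurred in 15 member windows, 21.4%, against 16.3% of all, and the CCAAT box in 31, 44.3%, against 38.2%. The YY1 letters AAGATGGCG occurred in 7 member windows, 10% of them, against 2.88% of all. These are letter matches on both strands and do not show binding. The members' median log2 fold change was 1.08 with and 1.07 without the NRF1 letters, and 0.70 with and 1.08 without the YY1 letters. For the ETS letters it was 1.19 with and 1.06 without, and for the CCAAT box 1.04 with and 1.09 without. Among the printed windows, Ndufb11 holds 4 CCAAT boxes, Atp5e holds 1 ETS match and 2 CCAAT boxes, and Ndufc2, which did not rise, holds 1 CCAAT box.

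Transcripts of nearly all nuclear subunits of the respiratory chain and of ATP synthase were more abundant in PM hippocampus than in vehicle hippocampus. Of the 79 members with enough counts to test, 72 rose, 0 fell and 7 did not pass (edgeR quasi-likelihood test with set as covariate, Benjamini-Hochberg adjusted p under 0.05 over 14982 genes). No member fell at an unadjusted p under 0.05 in edgeR, and 0 fell in DESeq2. With other library scalings 71 to 75 members were higher and 0 lower. These counts stand against a broad change in the libraries, since 32.7% of all tested genes were higher and 36.4% were lower, 69.1% in all. The members' median log2 fold change was 1.06, against -0.04 over all tested genes. A rise of at least 2-fold was seen for 45 members and one of 1.5- to 2-fold for another 20. In 65 members every PM library lay above every vehicle library, an arrangement found in 24.3% of all tested genes, and in 0 members did it run the other way, against 28.1% of all.

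**Figure D1:**
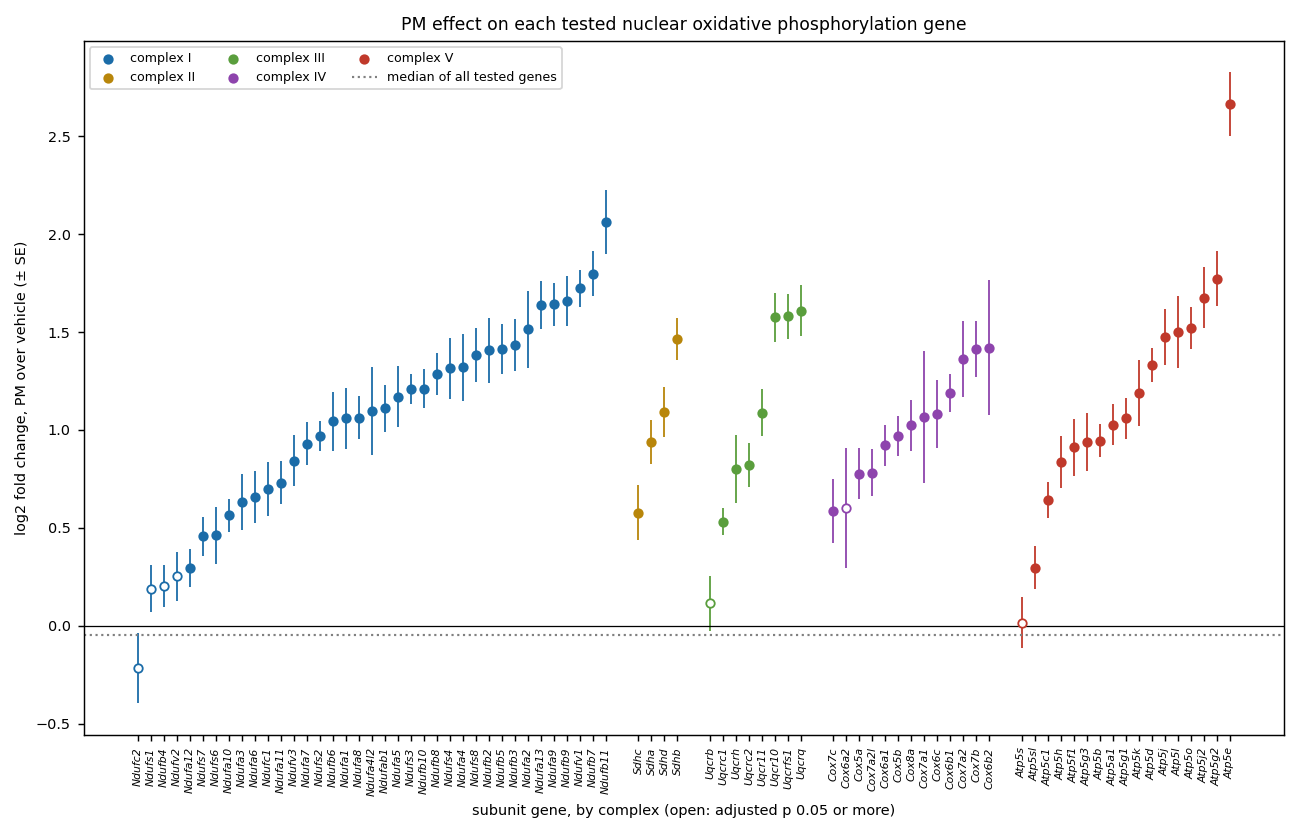
Log2 fold change of PM over vehicle (y axis, ± SE from edgeR) for the 79 tested genes on the x axis, grouped and coloured by complex and ordered within it, with filled points for adjusted p under 0.05 and open points for the 7 genes that did not pass. Nearly all points lie above 0, from -0.22 for Ndufc2 to 2.66 for Atp5e, and the dotted line is the median of all tested genes at -0.04.

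Summed over all members, the PM libraries ranged from 9273 to 15537 CPM (counts per unit of library size, scaled by TMM) with a median of 10396 CPM, and the vehicle libraries had 5728, 5944, 5676, 5436 and 5655 CPM. The groups did not overlap in this sum or in the sum of any complex. As a share of counts assigned to genes, which needs no scaling factor, the members made up 0.958% to 1.40% in PM libraries and 0.553% to 0.580% in vehicle libraries. PM replicate 3 had the highest sum, and it was the highest PM library for 76 of the 79 tested members. Without that library 72 members were higher and their median log2 fold change was 0.96. The median coefficient of variation of a member was 24.0% over PM libraries and 9.92% over vehicle libraries.

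**Figure D2:**
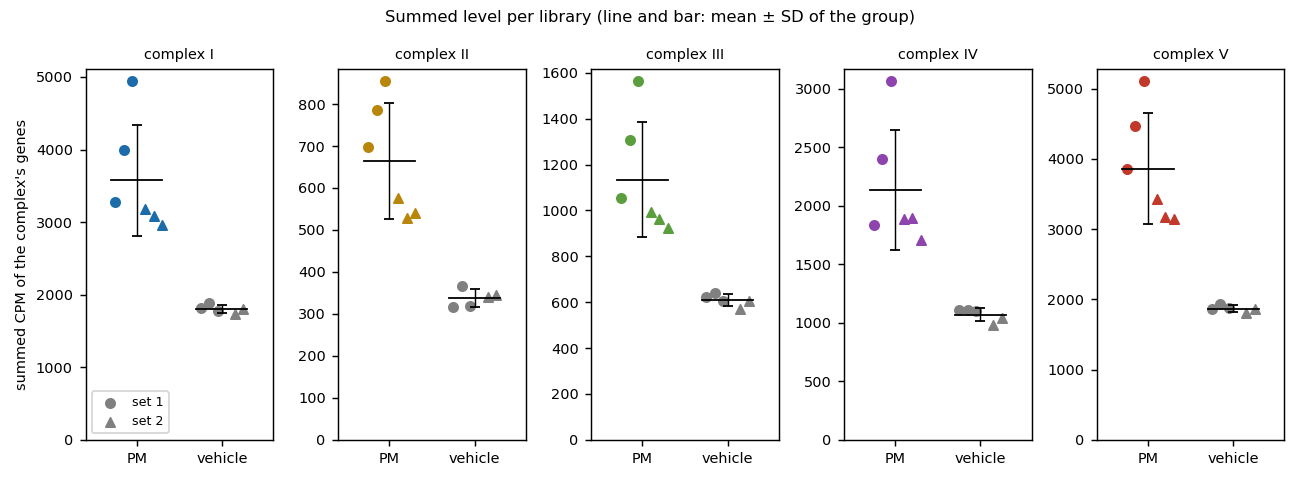
Summed CPM of the genes of each complex (y axis, from 0) in each library, PM in colour on the left and vehicle in grey on the right, with circles for set 1, triangles for set 2, and the line and bar for the group mean ± SD (n = 6 PM, n = 5 vehicle). In every complex all PM libraries lie above all vehicle libraries, and the set 1 PM libraries spread more widely than the vehicle libraries.

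Other properties of the libraries differed between the groups as well. Gene counts per library were 10938521 to 17763893 in PM and 6012116 to 12496651 in vehicle. Counts outside annotated features made up 18.8% to 34.0% of all counts in PM libraries and 60.9% to 62.0% in vehicle libraries, and reads aligned to several places 7.22% to 9.90% in PM and 4.21% to 4.75% in vehicle. The ribosomal RNA gene Rn45s took 4.01% to 17.0% of gene counts in PM libraries and 0.792% to 2.17% in vehicle libraries. With the rows of Rn45s, Lars2 and Mir6236 left out of the fit, 75 members were higher and 0 lower. Their median log2 fold change was then 1.16, against 0.06 over all tested genes. Beyond that refit, the part of these differences in the results below was not tested. Depth limits only the rarest members, since 3 counts in 1 library correspond to 0.169 to 0.274 CPM in PM libraries and 0.240 to 0.499 CPM in vehicle libraries, limits that cover counting error only. In bulk tissue, fewer cells of a type and less RNA per cell cannot be told apart.

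Complex I, the NADH dehydrogenase, had 33 of 37 tested members higher, with a median log2 fold change of 1.10. The counts here and for complexes II to V below stand beside 32.7% of all tested genes higher and 36.4% lower. Of its 7 core nuclear subunits, which carry the flavin and the iron-sulphur clusters, 5 rose (median 0.97), and of the 30 other tested members with complex I names 28 rose (median 1.10). The 3 largest changes were those of Ndufb11, Ndufb7 and Ndufv1. Ndufb11, an X-linked accessory subunit of the membrane arm, measured 84.0 CPM at the lowest, 90.2 at the median and 165 at the highest in PM libraries, against 22.4, 29.6, 24.5, 23.0 and 28.5 CPM in vehicle libraries. All PM libraries were thus well above all vehicle libraries, with PM replicate 3 the highest. The fold was 4.18 (log2 2.06 ± 0.16 SE, edgeR adjusted p 1.21644e-07). Ndufb7, an accessory subunit on the intermembrane space side, had 60.1, 67.4 and 93.4 CPM as lowest, median and highest PM values, against 19.9, 20.7, 22.1, 18.0 and 20.4 CPM in vehicle libraries, a 3.48-fold difference (log2 1.80 ± 0.11 SE, edgeR adjusted p 1.82152e-08). Ndufv1, the core subunit that binds NADH and FMN, ranged from 139 to 176 CPM in PM libraries with a median of 152, against 41.8, 48.8, 41.9, 53.9 and 50.0 CPM in vehicle libraries (3.30-fold, log2 1.72 ± 0.10 SE, edgeR adjusted p 6.9654e-09). Neither gene showed any overlap between the groups. Ndufa4, which carries a complex I name but is now placed in complex IV, rose 2.50-fold, to 253 ± 103 CPM in PM libraries against 101 ± 6.47 CPM in vehicle libraries (SD, n = 6 and n = 5).

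A handful of complex I genes stood outside this pattern. Ndufc2, an accessory subunit of the membrane arm, had 52.4, 65.7 and 126 CPM as lowest, median and highest PM values, against 78.2, 103, 76.4, 92.0 and 92.7 CPM in vehicle libraries. Here the groups overlapped, and the highest of all libraries was again PM replicate 3. Its log2 difference was -0.22 ± 0.18 SE (edgeR adjusted p 0.294866). Without PM replicate 3 it became -0.37 with an adjusted p of 0.0323039. Ndufs1, the largest iron-sulphur subunit, averaged 103 ± 19.1 CPM in PM libraries and 90.6 ± 12.3 CPM in vehicle libraries (SD, n = 6 and n = 5; log2 0.19 ± 0.12 SE, edgeR adjusted p 0.17227). Ndufv2, the partner of Ndufv1 in the NADH-oxidising tip, averaged 157 ± 37.1 CPM in PM and 132 ± 4.70 CPM in vehicle libraries (log2 0.25 ± 0.13 SE, edgeR adjusted p 0.0877242). Among the core subunits of the NADH-oxidising tip, Ndufv1 passed the test and its neighbours Ndufv2 and Ndufs1 did not. With length and GC trends removed, however, both passed as higher (Ndufs1 0.41, adjusted p 0.000978596; Ndufv2 0.33, adjusted p 0.00171232), as they did in set 1 (0.43, adjusted p 0.00288342; 0.45, adjusted p 0.00753531). Ndufb4, an accessory membrane arm subunit with a 100% identical copy over 390 bases named Ndufb4c, averaged 32.3 ± 4.32 CPM in PM and 28.1 ± 2.35 CPM in vehicle libraries (log2 0.20 ± 0.11 SE, edgeR adjusted p 0.107747).

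All 4 subunits of complex II, the succinate dehydrogenase that also serves the citric acid cycle, rose. Sdhb, the iron-sulphur subunit, had 110, 118 and 174 CPM as lowest, median and highest PM values, against 47.4, 50.7, 49.5, 45.4 and 45.4 CPM in vehicle libraries (2.76-fold, log2 1.46 ± 0.11 SE, edgeR adjusted p 6.64526e-08). The flavoprotein Sdha was the most abundant transcript of the complex, at 276 to 448 CPM in PM libraries and 181 to 195 CPM in vehicle libraries. Its 1.91-fold rise split by set, with PM values of 417, 447 and 448 CPM in set 1 and of 303, 276 and 279 CPM in set 2. The membrane anchors Sdhd and Sdhc rose 2.13-fold and 1.49-fold. Sdhd measured 52.8 to 100.4 CPM in PM libraries against 31.5 to 38.8 CPM in vehicle libraries, and Sdhc 82.8 to 133 CPM in PM against 54.0 to 82.3 CPM in vehicle libraries, where the PM minimum and the vehicle maximum nearly met.

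In complex III, the cytochrome bc1 complex, 7 of 8 members rose, with a median log2 fold change of 0.96. The small subunit Uqcrq had 97.4, 117 and 178 CPM as lowest, median and highest PM values, against 45.5, 41.9, 43.3, 38.7 and 39.1 CPM in vehicle libraries (3.05-fold, edgeR adjusted p 1.25476e-07). Uqcrfs1, the Rieske iron-sulphur protein that hands electrons to cytochrome c1, rose 2.99-fold, and Uqcr10, another small subunit, 2.98-fold. Their PM ranges were 95.9 to 166 CPM and 91.4 to 166 CPM, their vehicle ranges 37.4 to 49.3 CPM and 32.7 to 46.6 CPM. The matrix-side core proteins Uqcrc1 and Uqcrc2 rose 1.45-fold and 1.77-fold. With length and GC trends removed, Uqcrc1 no longer passed and its estimate was -0.16 (edgeR adjusted p 0.0521956). Uqcrb, the ubiquinone-binding protein, did not pass, with 67.3, 76.1 and 132 CPM as lowest, median and highest PM values, against 77.8, 89.1, 72.3, 71.3 and 86.4 CPM in vehicle libraries. The vehicle range held 1 PM library, while 2 PM libraries of set 1 lay above it and all 3 of set 2 below it (log2 0.12 ± 0.14 SE, edgeR adjusted p 0.478278). The estimate was -0.03 without PM replicate 3, and Uqcrb passed as higher in set 1 (0.36, adjusted p 0.0372849) and with length and GC trends removed (0.31, adjusted p 0.0013559). Uqcrb is also among the members with near-identical copies elsewhere, 3 of them.

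Complex IV, cytochrome c oxidase, had 12 of 13 tested members higher, with a median log2 fold change of 1.02. Its ubiquitous small subunits were the abundant ones. Cox7b, an X-linked subunit, had 124, 135 and 240 CPM as lowest, median and highest PM values, against 70.9, 57.6, 66.2, 47.6 and 56.9 CPM in vehicle libraries (2.66-fold, log2 1.41 ± 0.14 SE, edgeR adjusted p 1.17474e-06). Cox7a2, the widely expressed form of subunit 7a, measured 99.6 to 254 CPM in PM and 47.2 to 65.7 CPM in vehicle libraries, a 2.57-fold rise. In both genes the groups were separate and PM replicate 3 was the highest library. Cox7a2l, a relative that joins complexes III and IV into supercomplexes rather than serving as a subunit, rose 1.72-fold.

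Isoforms named for muscle or testis were rare in these libraries. Cox6b2, a testis form, had 1.95 to 4.44 CPM in PM libraries against 0.950, 0.905, 0.633, 0.654 and 2.20 CPM in vehicle libraries, and rose 2.67-fold (log2 1.42 ± 0.34 SE, edgeR adjusted p 0.00234832) with overlap of the groups at vehicle replicate 5. In set 2 alone its change did not pass (adjusted p 0.082953). The muscle form Cox7a1 had 0.594 to 2.15 CPM in PM and 0.440 to 1.08 CPM in vehicle libraries (2.09-fold, edgeR adjusted p 0.0121384). Cox6a2, another muscle form, averaged 3.64 ± 1.87 CPM in PM and 2.45 ± 0.589 CPM in vehicle libraries and did not pass (log2 0.60 ± 0.31 SE, edgeR adjusted p 0.096985). Cox8b, of heart and muscle, was not tested, with 78 counts over the PM libraries and 18 over the vehicle libraries, and neither was the testis form Cox7b2, with 19 counts in PM and 4 in vehicle libraries. Cox8c and the complex I gene Ndufs5 were at 0 counts in every library of both groups. For Ndufs5 this does not show a missing transcript, since a copy matching it over 319 bases at 99.4% identity, BC002163, held counts. Of 4 muscle markers, Acta1 rose 1.59-fold at 4.56 to 8.41 CPM in PM against 3.60 to 4.98 CPM in vehicle libraries, Myh7 did not pass, and Ckm and Tnnt3 were too rare to test, with 12 and 18 counts over the PM libraries and 4 and 7 over the vehicle libraries.

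ATP synthase, complex V, had 16 of 17 members higher, with a median log2 fold change of 1.06. The member with the largest change of all 79 was Atp5e, the epsilon subunit of the rotating central stalk. It had 66.8, 90.4 and 165 CPM as lowest, median and highest PM values, against 18.1, 16.8, 16.5, 12.9 and 17.1 CPM in vehicle libraries. The groups were far apart. The fold was 6.33 (log2 2.66 ± 0.16 SE, edgeR adjusted p 1.43982e-08). All 5 subunits of the catalytic F1 part, alpha to epsilon, rose, with a median log2 fold change of 1.03. The catalytic beta subunit Atp5b averaged 1075 ± 167 CPM in PM and 564 ± 48.9 CPM in vehicle libraries (SD, n = 6 and n = 5), and its partner alpha, Atp5a1, 745 ± 130 CPM in PM and 366 ± 24.4 CPM in vehicle libraries. So the epsilon gene changed by 2.66 on the log2 scale beside 0.95 for beta, though the difference between these genes was not tested. Atp5j2, the membrane subunit f, rose 3.19-fold, to 113 to 244 CPM in PM against 40.9 to 53.8 CPM in vehicle libraries.

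Each of the genes Atp5g1, Atp5g2 and Atp5g3 encodes a precursor of the same mature c subunit, which forms the proton-driven ring, and their proportions can be compared within a library without a library size, though not free of trends with length and GC content. Atp5g2 had 27.8, 34.3 and 46.0 CPM as lowest, median and highest PM values, against 9.34, 11.9, 10.7, 12.6 and 8.90 CPM in vehicle libraries (3.42-fold). Atp5g3 rose 1.92-fold, to 149 to 309 CPM in PM against 95.7 to 134 CPM in vehicle libraries, and Atp5g1 2.08-fold, to 91.3 to 128 CPM in PM against 41.7 to 58.5 CPM in vehicle libraries. The log2 ratio of Atp5g2 to Atp5g3 was -2.54 ± 0.23 in PM libraries and -3.37 ± 0.26 in vehicle libraries (SD, n = 6 and n = 5), a shift of 0.83 with no overlap between the groups. An exact two-sided permutation test over 462 splits gave p = 0.0021645, the smallest it can give, and 0.00865801 after Benjamini-Hochberg adjustment over 4 ratios. With splits within sets only, the exact permutation p was 0.005 and the adjusted value 0.02. The ratio of Atp5g1 to Atp5g3 was -0.96 ± 0.32 in PM and -1.10 ± 0.17 in vehicle libraries, and its difference of 0.14 did not pass (exact permutation p = 0.391775). By set that difference pointed in opposite directions, with -1.24 in PM and -1.03 in vehicle in set 1, and -0.67 in PM and -1.20 in vehicle in set 2. For 2 other pairs the difference also did not pass, at -0.36 for Cox7a1 to Cox7a2 (exact permutation p = 0.344156) and -0.41 for Cox4i2 to Cox4i1 (exact permutation p = 0.393939). The Cox4i genes lie outside the symbol pattern. Atp5g1 and Atp5g2 have copies that match at 99.8% and 100% identity over 411 and 645 bases but hold no row of their own. The ratios are thus uncertain where reads aligned to several places were left out of the gene counts. Such reads made up 7.22% to 9.90% of all counts in PM libraries and 4.21% to 4.75% in vehicle libraries. Their part in the ratios was not tested. With length and GC trends removed, the log2 fold changes were 1.61 for Atp5g1, 1.12 for Atp5g2 and 0.71 for Atp5g3, so that Atp5g1 (annotated length 4715 bases) and not Atp5g2 (731 bases) changed most and the gap between Atp5g2 and Atp5g3 (714 bases) was smaller. The ratios themselves were not tested with trends removed.

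A pair of genes with ATP synthase names are not subunits. Atp5s, a coupling factor, averaged 16.5 ± 2.53 CPM in PM and 16.5 ± 2.40 CPM in vehicle libraries (log2 0.02 ± 0.13 SE, edgeR adjusted p 0.921471). Atp5sl, now called Dmac2 and known in complex I assembly, had a log2 difference of 0.30 ± 0.11 SE (edgeR adjusted p 0.0295888), with 33.5 ± 5.40 CPM in PM and 26.6 ± 2.05 CPM in vehicle libraries. That call was lost without PM replicate 4 (adjusted p 0.0557635) or 5 (0.0537549), without vehicle replicate 4 (0.112994) or 5 (0.101385), with raw library totals (0.0781773), and with length and GC trends removed, where the estimate was 0.05 (0.680815).

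**Figure D3:**
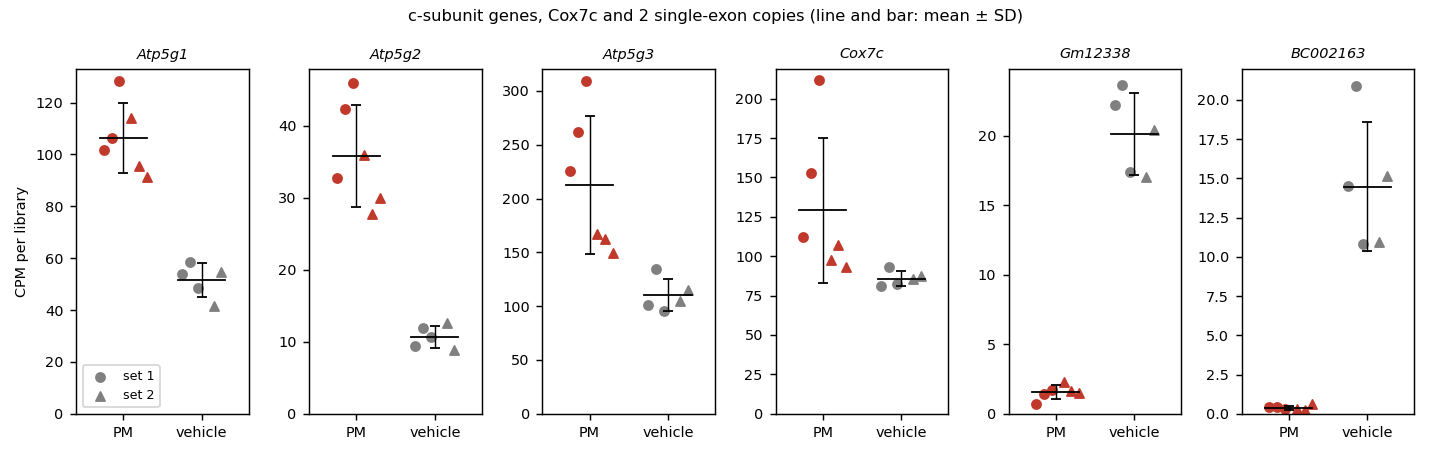
CPM per library (y axes, from 0, different for each panel) of the c-subunit genes Atp5g1, Atp5g2 and Atp5g3, of Cox7c, and of the single-exon copies Gm12338 and BC002163, PM in red on the left and vehicle in grey on the right, with circles for set 1, triangles for set 2, and the line and bar for mean ± SD (n = 6 PM, n = 5 vehicle). In these values Atp5g2 has the largest fold change of the c-subunit genes (3.42-fold; with length and GC trends removed Atp5g1 has, at log2 1.61 against 1.12 for Atp5g2), and both copies are lower in every PM library than in any vehicle library.

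Several members have near-identical copies in the genome, mostly retrocopies without introns, and some copies with rows of their own moved the opposite way. Gm12338, which matches Cox7c over 192 bases at 100% identity, averaged 1.55 ± 0.507 CPM in PM and 20.1 ± 2.91 CPM in vehicle libraries (log2 -3.73 ± 0.21 SE, edgeR adjusted p 6.4484e-09). BC002163 matches Ndufs5 over 319 bases at 99.4% identity. It averaged 0.377 ± 0.143 CPM in PM and 14.5 ± 4.11 CPM in vehicle libraries (log2 -5.23 ± 0.25 SE, edgeR adjusted p 3.01319e-09), while Ndufs5 itself was at 0. Gm10012, another copy of Cox7c, was rare and fell, with 0.313 ± 0.366 CPM in PM and 1.28 ± 0.417 CPM in vehicle libraries. Cox7c had 92.9, 110 and 212 CPM as lowest, median and highest PM values, against 80.9, 92.9, 82.2, 85.8 and 87.4 CPM in vehicle libraries (log2 0.59 ± 0.16 SE, edgeR adjusted p 0.00573644), with PM replicate 6 and vehicle replicate 2 both at 92.9 CPM. With both copies added to it, Cox7c averaged 131 ± 45.7 CPM in PM and 107 ± 6.33 CPM in vehicle libraries and its change no longer passed (log2 0.29 ± 0.16 SE, edgeR adjusted p 0.117961). Adding BC002163 to Ndufs5 gives the counts of BC002163 alone and so says nothing of Ndufs5. Uqcr10 also had a match with a row of its own, 4930481A15Rik (185 bases at 96.8% identity). That row had a log2 fold change of -0.46 and was not added to Uqcr10. Copies matching at least 150 bases at 95% identity or more were found for 24 members. Among tested members 21 of 23 with such a copy and 51 of 56 without one rose, with median log2 fold changes of 1.08 and 1.06. Of the 31 tested members with neither a copy nor an overlapping gene, 30 rose (median 1.09).

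Fold changes in these libraries went with transcript length. Over all 14853 tested genes with an annotated length, log2 fold change and length had a Spearman rho of -0.47, and over the 79 members it was -0.10 (description only, as all points share the libraries). The members are short, with a median of 865 bases against 2996 bases for all tested genes. When trends of each library with length and GC content were removed, 67 members were higher, 3 lower and 9 did not pass, where 35.6% of all tested genes were higher and 28.1% lower, 63.7% in all, and the members' median log2 fold change was 0.75 against 0.06 for all genes. The lower genes were Ndufc2, Ndufb4 and Ndufs7, a core iron-sulphur subunit of complex I that had risen 1.37-fold before the removal.

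**Figure D4:**
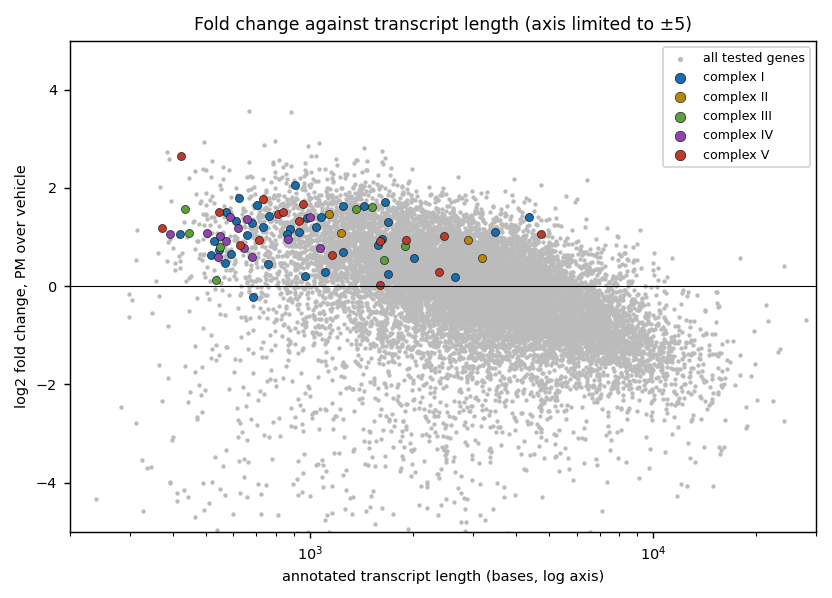
Log2 fold change of PM over vehicle (y axis, limited to ±5) against annotated transcript length in bases (log x axis), all tested genes in grey and the members coloured by complex. Fold changes of all genes fall with length (Spearman rho -0.47), and the members lie among the short genes and mostly above 0.

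The rise was present in both sets and smaller in set 2. In the joint fit, 74 of 79 members were higher in PM than in vehicle in set 1, where 32.1% of all tested genes were higher and 38.9% lower, 71.0% in all, and 64 in set 2, where 32.3% of all were higher and 32.5% lower, 64.8% in all. In set 1, 0 members were lower, and in set 2 there was 1, Ndufc2 (log2 -0.72, edgeR adjusted p 0.00383489). The median log2 fold change was 1.24 in set 1 and 0.88 in set 2, and estimates were smaller in set 2 for 69 of 79 members. The difference between the sets passed for 22 members, 21 smaller in set 2 and 1 larger, against 12.1% and 17.5% of all tested genes in these directions, 29.6% in all. Set 1 PM means lay above set 2 PM means for 75 members, while vehicle means did so for 49. The vehicle libraries did not divide cleanly by set. Rn45s took 2.16% of gene counts in vehicle replicate 2 of set 1, near 2.17% and 1.91% in vehicle replicates 4 and 5. In vehicle replicates 1 and 3 it took 0.792% and 0.802%. The part of this in the differences between sets was not tested. Sdha had the clearest difference, at 1.23 in set 1 and 0.58 in set 2 (edgeR adjusted p 0.00139655). Ndufb6, an accessory subunit of the complex I membrane arm, had 1.40 and 0.57 (0.00418935), Atp5a1 1.27 and 0.73 (0.006969) and Atp5f1, the peripheral stalk subunit b, 1.24 and 0.50 (0.00806395). Atp5sl went the other way, at 0.05 in set 1 and 0.64 in set 2 (0.00762843). The number of such differences varied with the libraries used. It was 48 without PM replicate 1, 13 without PM replicate 2 or 5, 10 without vehicle replicate 1, 9 without vehicle replicate 3 or 4, 4 without vehicle replicate 5, and 8 with raw library totals. Across the 79 members the effects in the 2 sets had a Spearman rho of 0.74, given as a description.

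**Figure D5:**
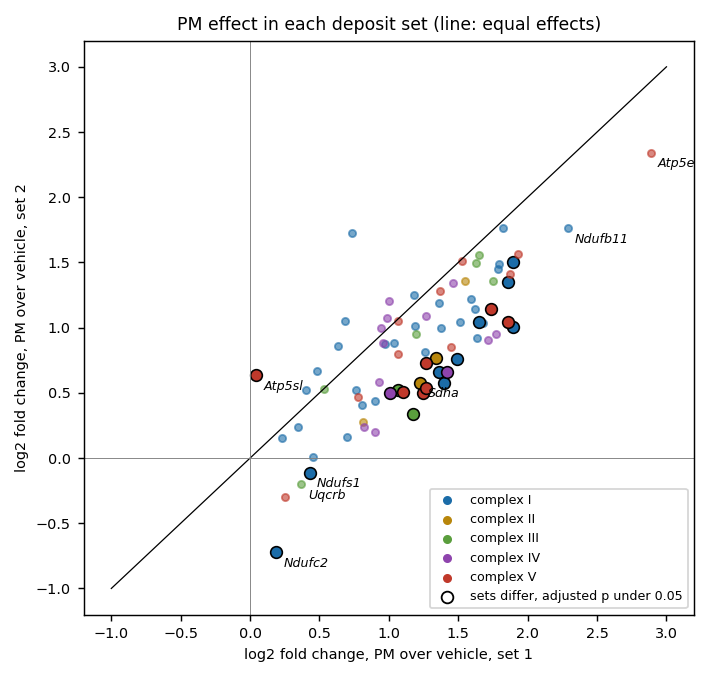
Log2 fold change of PM over vehicle in set 1 (x axis) and set 2 (y axis) for each tested member, coloured by complex, with ringed points for members whose effects differ between the sets and a line of equal effects. Most points lie below the line (69 of 79) and above 0, with Ndufc2 at 0.19 and -0.72 and Atp5sl at 0.05 and 0.64 apart from the rest.

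Levels can be compared between genes only per length. In vehicle libraries the highest members on the scale of CPM per kilobase were Cox8a (346), Atp5b (294), Cox6a1 (274), Cox6c (269), Atp5h (213) and Uqcrh (174). In PM libraries they were Cox8a (686), Cox6c (573), Atp5b (561), Cox6a1 (515), Ndufa4 (415) and Atp5h (380). The order of members by CPM, not divided by length, was largely kept, with a Spearman rho of 0.86 between mean CPM in PM and vehicle libraries over 79 members. The fold change tended to be higher for members with lower vehicle CPM, not divided by length (Spearman rho -0.39). That measure shares the vehicle values and is only a description.

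Related genes outside the symbol pattern were taken from lists chosen with earlier results of these data known. Of 7 further structural genes, 6 rose and 0 fell, where 32.7% of all tested genes were higher and 36.4% lower. Cox4i1, the main form of complex IV subunit 4, had 448 to 809 CPM in PM against 173 to 192 CPM in vehicle libraries (3.19-fold), Cyc1, the cytochrome c1 of complex III, rose 2.92-fold, and 2010107E04Rik, a small ATP synthase subunit, 4.04-fold. Cycs, cytochrome c itself, rose 2.28-fold, and the ATP synthase subunit gene Usmg5 1.59-fold. Atpif1, the inhibitor of ATP synthase, did not pass (log2 0.15 ± 0.12 SE, edgeR adjusted p 0.273595). Of 47 tested assembly factors 29 rose and 4 fell, beside the same shares of all tested genes, with a median log2 fold change of 0.63. Uqcc2 of complex III assembly (5.16-fold) and Pet100 of complex IV assembly (3.22-fold) rose most, whereas Cox16 fell to 1.11 ± 0.413 CPM in PM against 4.46 ± 0.991 CPM in vehicle libraries, and Atpaf1 fell to 16.4 ± 2.66 CPM in PM against 21.8 ± 2.40 CPM in vehicle libraries. Sco2 and Pet117 were at 0 in every library, and whether their transcripts were missing or not counted was not tested.

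Of 13 enzymes of the citric acid cycle, which supplies the electrons, 11 rose and 1 fell, with a median of 0.57. Of all tested genes 32.7% were higher and 36.4% lower. Sucla2, a subunit of succinyl-CoA ligase, and malate dehydrogenase Mdh2 rose 2.25-fold and 2.09-fold. Ogdh, the first subunit of the 2-oxoglutarate dehydrogenase complex, fell to 213 ± 15.9 CPM in PM against 331 ± 5.41 CPM in vehicle libraries (log2 -0.65 ± 0.07 SE, edgeR adjusted p 2.44345e-06). Of 14 regulators of nuclear mitochondrial genes 2 rose, 7 fell and 5 did not pass, with a median of -0.40, where 32.7% of all tested genes were higher and 36.4% lower. Esrra, an orphan nuclear receptor that drives such genes, rose to 47.0 ± 3.26 CPM in PM against 17.1 ± 3.20 CPM in vehicle libraries, and Tfam, the packaging factor of mitochondrial DNA, rose 1.67-fold. Ppargc1a, a coactivator of nuclear mitochondrial genes, fell to 33.2 ± 6.53 CPM in PM against 110 ± 5.90 CPM in vehicle libraries (log2 -1.73 ± 0.12 SE, edgeR adjusted p 3.08148e-08), and Sp1 was 2.79-fold lower. With length and GC trends removed, 4 regulators were higher and 6 lower, against 35.6% and 28.1% of all tested genes.

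Marker genes of the cell types of the hippocampus and its neighbours were summed per library. The counts of markers called stand beside 32.7% of all tested genes higher and 36.4% lower. The summed markers of hippocampal neurons were 7818 to 9542 CPM in PM and 9740 to 11147 CPM in vehicle libraries (1 of 9 higher, 5 lower), and those of astrocytes 2644 to 4984 CPM in PM and 6584 to 6971 CPM in vehicle libraries (2 of 5 higher, 2 lower). The lower astrocyte sum was carried by Slc1a2, at 1809 to 3525 CPM in PM and 5576 to 6016 CPM in vehicle libraries, while Gfap and Aldh1l1 rose. With length and GC trends removed 4 of the 5 astrocyte markers were higher and 0 lower, against 35.6% and 28.1% of all tested genes. Oligodendrocyte markers summed to 3829 to 8896 CPM in PM and 3591 to 4572 CPM in vehicle libraries (4 of 5 higher), microglial markers to 153 to 217 CPM in PM and 149 to 170 CPM in vehicle (2 of 4 higher), and endothelial markers to 84.4 to 153 CPM in PM and 74.7 to 87.8 CPM in vehicle (2 of 3 higher). Markers of pericytes and smooth muscle summed to 62.2 to 127 CPM in PM and 48.9 to 66.8 CPM in vehicle (2 of 3 higher, 1 lower), those of choroid plexus to 29.7 to 2453 CPM in PM and 65.4 to 1203 CPM in vehicle (0 of 3 higher, 1 lower), and those of muscle to 8.57 to 13.1 CPM in PM and 6.54 to 8.22 CPM in vehicle. No marker was at 0 in all libraries. The hippocampal neuron markers were thus present throughout, and the part of these shifts in the result was not tested.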

How the data were processed

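The authors deposited 1 count file per library with whole-number counts per gene symbol, not normalized, and HTSeq summary counts, which stayed out of library sizes and tests. Per the submitters' processing notes, FastQC 0.11.9, Trimmomatic 0.36, STAR, SAMtools 1.9, Picard 2.9.2 and HTSeq 0.9.1 were used, and mm10 and hg19 are named as builds. No source used here states the strand setting; 29 members overlap a gene on the other strand, whose reads cannot be told apart from theirs, and members with near-identical copies are uncertain too. The molecule field names polyA RNA, whereas the labels' protocols describe removal of ribosomal RNA.

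Counts were tested in edgeR 4.0.16 (R 4.3.3): filterByExpr with a minimum count of 10 (14982 genes), TMM scaling, robust quasi-likelihood test with set as covariate, two-sided, Benjamini-Hochberg over all genes, threshold 0.05. Set effects came from 1 joint fit. SE was computed as the size of the log2 change over the root of the F statistic. DESeq2 1.42.0 was an alternative, as were other scalings, no filter, splines of 5 degrees of freedom on length and GC content, single sets, a replicate block and leaving out each library. Within-library ratios used a prior count of 0.5. The steps were tested on simulated counts with a fixed spread, few changed genes and no trend with length or GC content. These data differ in each of these points, so that test does not show how the steps perform on them. Libraries of a group were compared in pairs, and the most alike (vehicle replicates 1 and 3, chi-square 2.01 per degree of freedom) still differed by more than sampling noise, so none were merged. Vehicle replicate 2 of set 1 was nearer to vehicle replicates 4 and 5 of set 2 (5.43 and 5.19). Its values against vehicle replicates 1 and 3 of its own set were 12.6 and 12.9.

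Gene positions and lengths came from GENCODE M21 on GRCm38, which matched 98.4% of symbols and all 83 members. Copies were found with BLAST 2.17.0 and promoter windows came from RefSeq (GRCm38.p6). Named genes were the 3 largest and the smallest change per complex, members that did not pass, the 5 smallest p of the set difference, isoform pairs, symbols that are not subunits of their named complex, and the extremes of each other list. Members and lists were chosen with earlier results of these data known.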

Additional observations from a re-analysis of the deposited data

Results flagged for a closer look

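In a check of 66 groups of libraries for 1 value far from the others, 2 stood out. Ndufb7 was 93.4 CPM in PM replicate 3 against 60.1 to 68.1 CPM in the other PM libraries, and Cox6b2 was 2.20 CPM in vehicle replicate 5 against 0.633 to 0.950 CPM in the other vehicle libraries. Chance flags about 1 in 20 groups.

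The PM effect differed between set 2 and set 1 in 22 of 79 tested members (edgeR, adjusted p under 0.05). It did so in 29.6% of all tested genes, so the count in both directions together is not particular to the members. By direction, 21 members were smaller in set 2 and 1 was larger, against 12.1% and 17.5% of all tested genes. On the log2 scale, set 2 minus set 1, complex I differed by -0.70 for Ndufa1, -0.89 for Ndufa2, -0.74 for Ndufa5, -0.51 for Ndufa9, -0.83 for Ndufb6, -0.91 for Ndufc2, -0.54 for Ndufs1, -0.61 for Ndufs8 and -0.39 for Ndufv1. The difference was -0.65 for Sdha and -0.57 for Sdhd of complex II, -0.55 for Uqcrc2 and -0.84 for Uqcrh of complex III, and -0.76 for Cox6c and -0.51 for Cox7a2l of complex IV. ATP synthase had -0.54 for Atp5a1, -0.74 for Atp5f1, -0.73 for Atp5g3, -0.59 for Atp5h, -0.60 for Atp5j and -0.82 for Atp5l, and Atp5sl had 0.59. How far this count depends on single libraries is given with the set comparison, and what the sets stand for is not stated in the labels.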

How the results depend on the processing

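The count of members higher in PM stayed between 66 and 76 under all alternatives, and the 4 log2 ratios kept their direction and side of the threshold with the larger prior count, with splits within sets and with 1 library left out. Within single sets, the ratio of Atp5g1 to Atp5g3 was lower in PM in set 1, and that of Cox7a1 to Cox7a2 was -6.45 in PM and -6.48 in vehicle in set 2. The count of lower members, 0, became 3 with length and GC trends removed and 1 in set 2 alone. It was also 1 when Gm12338 and Gm10012 were added to Cox7c and BC002163 to Ndufs5, an alternative chosen after seeing the data. In that alternative 4930481A15Rik was not added to Uqcr10. The lower member there was the summed row of Ndufs5 and BC002163, which holds the counts of BC002163 alone. Leaving out 1 library gave 0 to 1, the 1 being Ndufc2 without PM replicate 3. No pairing of libraries by replicate number was seen. Same-numbered correlations of deviations were -0.005, -0.03, -0.12, -0.18 and -0.12, and 0 of 5 pairs correlated best with their own number. This check is weak and cannot exclude pairing, since each PM library had only the 3 or 2 vehicle libraries of its set to match. In set 2 the deviations of these 2 are exact opposites by construction. With the replicate number as a block, 71 members were higher and 0 lower, and block and trend removal together gave 66 higher and 1 lower. The count of differences between sets was 8 with raw library totals and 4 to 48 when 1 library was left out. Among 33 named members, 711 of 759 values kept direction and call, 14 lost the call, 22 gained it and 12 changed sign. The sign changed for Ndufc2 (0.29 in set 1 alone), Ndufs1 (-0.10 in set 2 alone), Uqcrb (-0.19 in set 2 alone, and -0.027, without PM replicate 3, to 0.23 when 1 library was left out), Ndufb4 (-0.22 with trends removed, -0.25 with the block added) and Atp5s (-0.0028 with raw totals, -0.29 in set 2 alone, and -0.059 to 0.12 when 1 library was left out, below 0 without PM replicate 2 or 3 or vehicle replicate 1 or 3). The cause was not tested. The median of all genes moved by 0.11 with trends removed, 0.10 with the block added, 0.10 without Rn45s, Lars2 and Mir6236, and by less than 0.1 otherwise. Depth limits only Cox6a2, Cox6b2, Cox7a1, Cox7b2, Cox8b and Ndufa4l2 among detected members.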
